A study of Homo sapiens with 4 samples.

Results

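The 33 genes described here are the ribosomal protein genes and translation factor genes on a 2-colour oligonucleotide array, taken by their probe names and counted once per printed accession. They are 25 cytosolic ribosomal proteins, 1 mitochondrial ribosomal protein and 7 translation factors, out of 1856 accessions in all. The kinases of the RPS6K family were left out by the rule. The rule uses names and no measured values, but the members were chosen with earlier results of these data known. SW480, an established line from a colon adenocarcinoma, was grown in medium with 10% serum. For 10 h it received either the postbiotic of Bacillus mojavensis (BM), a preparation from a culture of that bacterium, or as the control MRS, the medium in which the bacterium was grown, each at 15% by volume. Each group holds 2 samples, described by the submitters as independent cultures. On an array, 1 MRS sample and the BM sample with its replicate number were hybridised together. All MRS cDNA carried the dye Alexa Fluor 555 and all BM cDNA the dye Alexa Fluor 647, so that dye and treatment cannot be told apart in any ratio. The treatment field names MRS medium for all 4 samples, and the groups rest on the sample titles.

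Ribosomes are built from ribosomal RNA and a set of ribosomal proteins, which are divided between a small subunit that decodes the mRNA and a large subunit that joins the amino acids. Translation factors load the ribosome onto the mRNA, bring in the charged tRNAs and move the ribosome along. In mammalian cells the mRNAs of ribosomal proteins, and of some translation factors, start with a run of pyrimidines (C or T in DNA) called the terminal oligopyrimidine tract, through which mTOR signalling controls how well they are translated. An array of mRNA levels does not measure how well an mRNA is translated. Colon carcinoma cells, like other growing cells, need a large supply of ribosomes.

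The tract is the sequence feature for which ribosomal protein genes are known, so the bases around the annotated start are shown for a choice of members. The 6 ribosomal protein genes were picked among those that hold the tract and had one sign on both arrays, EIF2B5 and EIF1AX are factors with one sign, and EIF4B and MRPL28 had opposite signs. RPL6 and RPL9, which also had one sign, hold no such run by the cutoff given below and are not shown. In RPL9 a run begins just past that cutoff. Each window runs from 10 bases before the RefSeq gene start to 20 bases from it onward (build GRCh38.p14, 5′ to 3′ on the gene's strand). Capitals mark the longest unbroken run of C and T that overlaps the 5 bases on either side of the start, where it has at least 6 letters.
RPS19, chr19:41860245-41860274, plus strand: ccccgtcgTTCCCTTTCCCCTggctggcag
RPS3, chr11:75399508-75399537, plus strand: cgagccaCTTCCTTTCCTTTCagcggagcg
RPL28, chr19:55385922-55385951, plus strand: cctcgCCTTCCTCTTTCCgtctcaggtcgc
RPS12, chr6:132814559-132814588, plus strand: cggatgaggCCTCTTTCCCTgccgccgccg
RPS23, chr5:82278335-82278364, minus strand: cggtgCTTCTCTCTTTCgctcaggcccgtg
RPLP1, chr15:69452808-69452837, plus strand: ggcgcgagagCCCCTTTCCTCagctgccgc
EIF4B, chr12:53006446-53006475, plus strand: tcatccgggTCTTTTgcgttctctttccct
EIF2B5, chr3:184135348-184135377, plus strand: cagCTTCCTTgcggaagtggtgaccgtgag
EIF1AX, chrX:20141819-20141848, minus strand: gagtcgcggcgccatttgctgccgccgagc
MRPL28, chr16:370519-370548, minus strand: caggcgcggcagatcggcttccggttccgg
In the 6 ribosomal protein genes shown the run holds the start itself, and the first base of the gene is C. RPS19 has a second RefSeq entry, which is not shown. EIF1AX and MRPL28 have no run of that length there.

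Of the 25 cytosolic ribosomal proteins, 21 matched a RefSeq promoter entry, and 16 of these (76.2%) held a run of at least 6 pyrimidines at the start in at least 1 entry. Of the 6 translation factors counted, 3 did (50%), and the mitochondrial protein MRPL28 did not. EIF3S6 was left out of this count, whether or not it has an entry. In EIF4B the run holds the start, in EIF2B5 it ends before the start and in EIF4G2 it begins after it. Over all 27305 genes in that table the share was 26.2%. The 16 ribosomal protein genes with the run had a median log2 ratio of BM over MRS of 0.029, with 7 above 0 on both arrays and 3 below, and the 5 without it had a median of 0.0055, with 1 above and 1 below. Of all accessions 24.6% lay above 0 on both arrays and 28.4% below. RPL5, the ribosomal protein with the highest mean ratio, had no entry and is in neither group. These counts describe letters in a window and the ratios beside them, and 5 genes are too few for an order between the groups. They also depend on the cutoff around the annotated start. RPL9, RPS15 and RPL15, counted as without the run, have one that begins further downstream in a window.

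Raw intensity, the brightness of a spot in arbitrary scanner units, had medians over all non-control spots of 1985 and 2186 for MRS and of 1655 and 1895 for BM. All 33 members reached 1.5 times their local background in all 4 samples, as did 1817 of the 1856 accessions. So did all 9 colon epithelium markers on the array, and also all 7 leukocyte and all 6 fibroblast markers, among them PTPRC (CD45), whose raw intensities were 6414 and 3736 in MRS. A signal above background on this array therefore did not separate genes that the line should express from genes that it should lack. Raw values are given below in the order MRS replicate 1, MRS replicate 2, BM replicate 1, BM replicate 2. The BM channel was dimmer as a whole, and a log2 ratio given here is BM over MRS after normalization within the array by loess, which sets the middle of the ratios to 0 at each brightness. In bulk RNA a change in RNA per cell and a change in the make-up of the culture cannot be told apart. Brightness is a property of each printed probe and was not compared between genes as an amount.

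Across the whole table, limma called 0 of 1856 accessions at an adjusted p under 0.05 (Benjamini-Hochberg, two-sided; 0% called), and the smallest adjusted p was 0.571. Without adjustment 122 accessions (6.57%) had a p under 0.05. Of the 33 members, 2 did, RPL5 and RPS19. No change given below therefore passed the test in this fit, made after loess, and the values are those of 2 pairs of cultures. Adjusted p-values below are from this fit unless another processing is named. The median half-width of the members' 95% intervals was 0.15 on the log2 scale.

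Among the 14 proteins of the large subunit, RPL5 had the highest mean ratio. RPL5 binds 5S ribosomal RNA and, together with RPL11, can bind MDM2 when ribosome assembly is disturbed; its gene lies on chromosome 1 (92831986 to 92841924, GRCh38.p14). Its raw intensities were 40920, 45091, 57924 and 65524. Both BM samples were above both MRS samples in raw intensity, before the channels, which carry different dyes, were normalized. With each array only centred on its median, the other probes of the brightest decile also had a median log2 ratio of 0.23. On arrays 1 and 2 the log2 ratio was 0.22 and 0.26, with a mean of 0.24 ± 0.028 (SD, n = 2), or 1.18-fold (limma adjusted p = 0.571). It ranked 18th from the top of the 1856 accessions, but neither rank nor fold is exact, because 1 of its BM levels is a lower bound.

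RPL5 was also the second brightest accession on the arrays, and its BM signal on array 2 stood at the limit of the scanner. Its 2 spots there had mean intensities of 65521 and 65527, against the scanner's maximum of 65535, so that on 1 of the 2 arrays the BM level is only a lower bound. On array 1 the spots had 57593 and 58254. Of all non-control spots, 2 in the BM sample of array 1, 4 in that of array 2 and 0 in either MRS sample exceeded 65000. Only 1 of the 50 other probes nearest to RPL5 in raw intensity was brighter, and 3 of these 50 had a higher mean ratio. The RPL5 ratio depended on the processing. It was 0.082 under print-tip loess, which fits each of the 24 printed blocks by itself, and 0.38 with a wider loess span. The authors' net intensities, to which no loess was applied here and which were only centred on the median, gave 0.091. The raw intensities after background correction, with each array only centred on its median, gave 0.73.

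**Figure D1:**
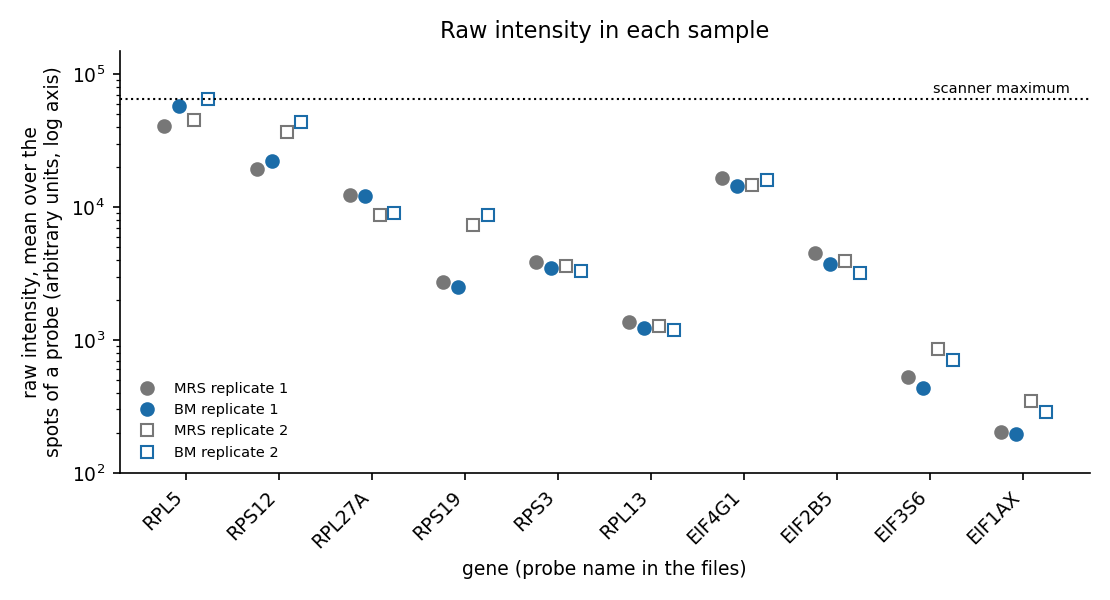
Raw intensity (arbitrary units, log axis) of selected members in each of the 4 samples, as the mean over the spots of a probe; circles are array 1, squares array 2, grey MRS and blue BM, and the dotted line is the scanner maximum of 65535. RPL5 in BM replicate 2 lies on that line, RPS19 differs far more between arrays than between treatments, and RPS3 and RPL13 are nearly level in all samples.

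RPL13, a large subunit protein on chromosome 16 (89560657 to 89566829), was among the most even members. Its raw intensities were 1375, 1264, 1227 and 1181, with both BM values below both MRS values before the channels were normalized. Its log2 ratios were 0.088 and 0.095, with a mean of 0.091 ± 0.0049 (SD, n = 2). That is 1.07-fold, with a 95% interval from -0.047 to 0.23 (limma adjusted p = 0.779).

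RPL27A, RPL28 and RPL6 completed the 5 large subunit proteins with positive ratios on both arrays. RPL27A had raw intensities of 12327, 8700, 12161 and 8994 and log2 ratios of 0.062 and 0.16. RPL28 had 3317, 1774, 2941 and 1641, with log2 ratios of 0.062 and 0.083. The 2 arrays differed more in the raw level of either gene than the treatments did on an array. RPL6 had 4397, 7184, 3957 and 6712, and log2 ratios of 0.060 and 0.041. All 3 had an adjusted p of 0.779 or more in limma.

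Negative ratios on both arrays were found for RPLP1, RPL9 and RPL38. RPLP1 forms part of the acidic stalk that recruits elongation factors, and its raw intensities were 7425, 4290, 6273 and 3710 with log2 ratios of -0.076 and -0.0094. RPL9 had raw intensities of 858, 767, 722 and 645 and log2 ratios of -0.011 and -0.099. RPL38 had 1044, 782, 841 and 709, with -0.074 on array 1 and -0.00015 on array 2, which is barely below 0. The highest of their mean ratios was -0.037 and the lowest -0.055, and the 95% interval of each held 0.

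The remaining 6 large subunit proteins had opposite signs on the arrays. RPL39L, a copy of RPL39 best known from testis, had 0.18 on array 1 and -0.064 on array 2. RPL26 had 0.11 and -0.12. RPL21 had 0.048 and -0.0034, RPL22 0.034 and -0.045, and RPL35A -0.056 and 0.028. RPL22 and RPL35A were dim, with raw intensities of 137 to 255 and 136 to 204. The sixth, RPL15, is described with its spots below.

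Among the 11 small subunit proteins, 6 had positive ratios on both arrays and 1 had negative ratios. RPS19, whose gene is mutated in many patients with Diamond-Blackfan anaemia and lies on chromosome 19 (41860255 to 41872925), had raw intensities of 2753, 7314, 2482 and 8756. Its probe was 3.06-fold brighter on array 2 than on array 1, taken over both channels, and the MRS and BM ranges overlapped. Its log2 ratios were 0.099 and 0.39, with a mean of 0.24 ± 0.20 (SD, n = 2), or 1.18-fold (limma adjusted p = 0.70). Most of that mean came from array 2. Its 2 spots agreed closely within each array, at 0.10 and 0.098 on array 1 and 0.38 and 0.39 on array 2.

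In the size of the difference in brightness between arrays RPS19 stood at the 95.5th percentile of all accessions, and the median accession differed by 1.33-fold. Its mean ratio was 0.27 under print-tip loess, 0.25 with each array centred on its median and 0.26 with the authors' net intensities. The lowest value among the alternatives that kept both arrays was 0.23, with a loess span of 0.7.

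RPS3, which also acts as a DNA repair endonuclease and lies on chromosome 11 (75399518 to 75422302), was level in all samples. Its raw intensities were 3868, 3576, 3507 and 3325, and its log2 ratios were 0.084 and 0.096. The mean was 0.090 ± 0.0089 (SD, n = 2), or 1.06-fold, with a 95% interval from -0.049 to 0.23 (limma adjusted p = 0.779). RPS3 and RPL13 thus gave the same ratio on both arrays to within 0.013, but at a size that the fitted interval does not separate from 0.

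RPS12 and RPS6 also had positive ratios on both arrays. RPS12 was bright, with raw intensities of 19173, 36650, 22041 and 43506 and log2 ratios of 0.16 and 0.046. RPS6, the protein that S6 kinases phosphorylate, had raw intensities of 491, 555, 442 and 541 and log2 ratios of 0.043 and 0.076. Neither had an adjusted p under 0.779 in limma in the fit reported here. With each array only centred on its median, RPS12 had a limma adjusted p of 0.0292, as described below.

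RPS23, a protein of the decoding centre, was the small subunit protein with negative ratios on both arrays. Its raw intensities were 4969, 4876, 4215 and 4004, and its log2 ratios were -0.032 and -0.095. The other 4 had opposite signs, with RPS16 at -0.15 and 0.22, RPS9 at -0.11 and 0.057, RPS29 at -0.016 and 0.047 and RPS15 at 0.027 and -0.016. RPS16 had the largest gap between arrays of any member, and its 2 spots shared the sign of the mean within each array.

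MRPL28, the only mitochondrial ribosomal protein on the array, is encoded in the nucleus and built into the ribosome of mitochondria. Its raw intensities were 5679, 11339, 4944 and 11517. With log2 ratios of -0.0073 and 0.094, its sign was not shared.

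The translation factors were 6 of initiation and 1 of elongation, and none had positive ratios on both arrays. EIF1AX, which helps the small subunit to scan for the start codon, had raw intensities of 205, 346, 195 and 288 and log2 ratios of -0.023 and -0.25, with a mean of -0.14 ± 0.16 (SD, n = 2), or 0.909-fold. EIF3S6, the older name of EIF3E, a subunit of the factor that bridges mRNA and the small subunit, had raw intensities of 523, 857, 434 and 704. Its log2 ratios were -0.077 and -0.14, with a mean of -0.11 ± 0.043 (SD, n = 2), or 0.928-fold. EIF2B5, the catalytic subunit of the exchange factor for eIF2 that the integrated stress response inhibits, had 4546, 3913, 3732 and 3217. Its log2 ratios were -0.072 and -0.079, and the mean was -0.076 ± 0.0054 (SD, n = 2), or 0.949-fold. Limma's adjusted p was 0.779, 0.779 and 0.804 for these 3 genes. The 95% intervals of all 3 held 0, at their widest from -0.34 to 0.062 for EIF1AX.

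The other 4 factors had opposite signs on the arrays. EIF4B, which stimulates the helicase that unwinds mRNA leaders, had raw intensities of 11024, 17161, 11851 and 17094 and log2 ratios of 0.20 and -0.0083. EIF4G1, the scaffold of the cap-binding complex, had 16472, 14619, 14447 and 15909, and log2 ratios of -0.16 and 0.14. EIF4G2, a related scaffold that does not bind the cap-binding protein, was dim at 133 to 171 and had 0.042 and -0.020. EEF1G, a subunit of the elongation factor complex that delivers tRNA, had 363, 318, 329 and 301 and log2 ratios of 0.036 and -0.070.

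**Figure D2:**
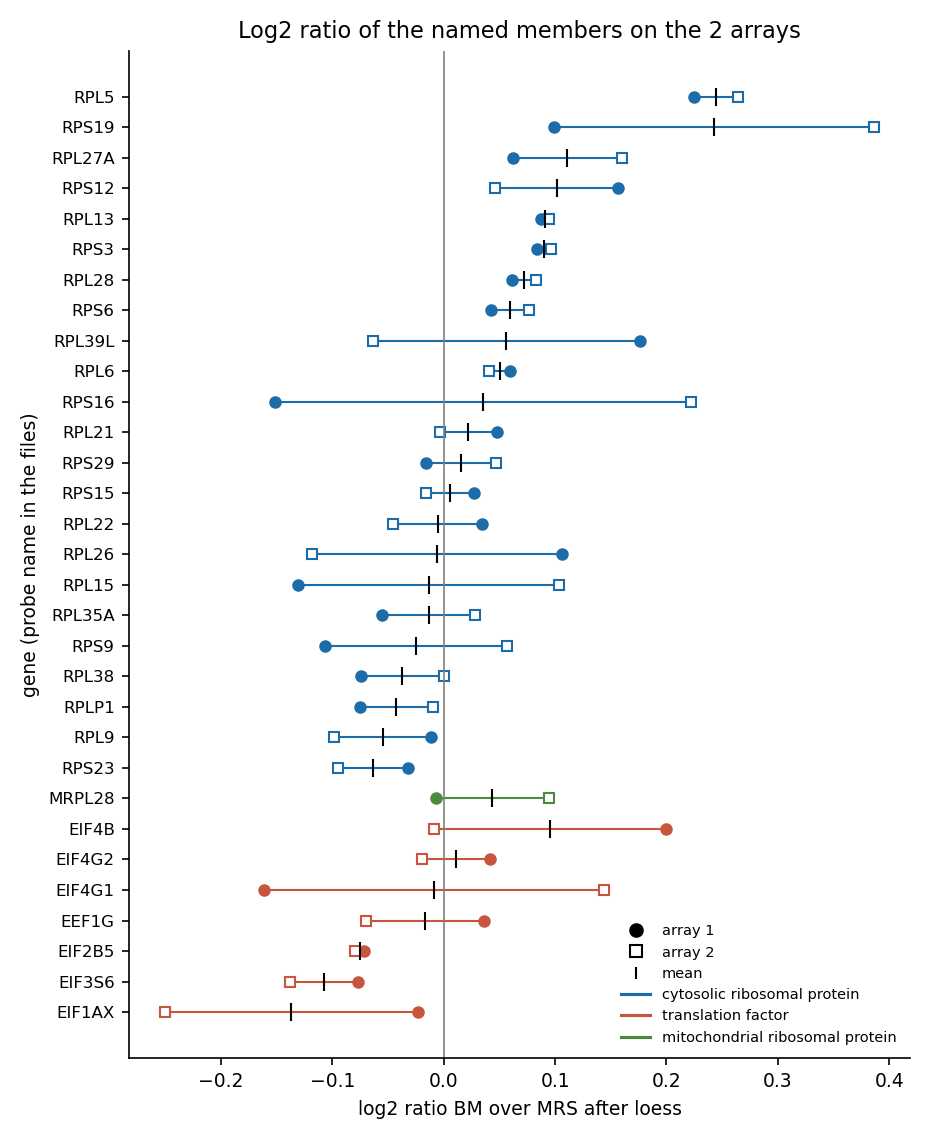
Log2 ratio of BM over MRS after loess for the members given by name on array 1 (filled circles) and array 2 (open squares), with the mean of both as a tick, ordered by class and mean. Of the 25 cytosolic ribosomal proteins 11 lie above 0 on both arrays and 4 below, of the 7 translation factors 0 lie above and 3 below, and 2 of those 25 ribosomal proteins are not drawn.

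The comparison of the classes asks whether ribosomal proteins and translation factors behaved alike. On both arrays 11 of 25 cytosolic ribosomal proteins (44.0%) had positive ratios, against 24.6% of all accessions, and 4 (16%) had negative ratios, against 28.4%. Of the 7 translation factors 0 were positive and 3 negative on both. Taken singly, 16 of the 25 ribosomal proteins were positive on array 1 and 16 on array 2, against 48.9% and 47.3% of all accessions. The median log2 ratio of the ribosomal proteins was 0.048 on array 1 and 0.047 on array 2, and that of all accessions was -0.0037 and -0.0058. For the translation factors the medians were -0.023 and -0.070.

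Ribosomal proteins thus lay above translation factors by 0.071 on array 1 and by 0.12 on array 2, and by 0.052 in the medians of the mean ratios (0.035 and -0.017). These shifts are descriptions over members that were not tested as a set. Within the ribosome the subunits did not keep an order, since the large subunit median was above that of the small subunit by 0.011 on array 1 and below it on array 2, by -0.062. The order of ribosomal proteins above factors held in each of the 10 other processings that keep both arrays, with differences of 0.046 to 0.090. Among these, the fit without the array as a block and the filter on background leave every member's ratio as it was. They could not change that order. The positive median of the ribosomal proteins did not, and stood at -0.0053 under print-tip loess.

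Each gene was also set beside probes of like brightness. Loess had already set the middle of the ratios to 0 at each brightness, so this subtraction could change little. After loess it therefore cannot decide whether these shifts go with intensity. For each gene the median ratio of the 50 other probes nearest in mean raw intensity was subtracted. The ribosomal proteins then had a median of 0.052 on array 1 and 0.054 on array 2. Of the 33 members 4, among them RPL5 and RPS19, exceeded the 95th percentile of their neighbours, as did 6.90% of all accessions, and 0 of the 33 members fell under the 5th, as did 6.79%. The translation factors had medians of -0.0067 and -0.049 against neighbours. Under print-tip loess the ribosomal protein median against neighbours was 8.03e-05. With each array only centred on its median, and no loess, it was 0.041.

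Before loess the ratios varied with brightness, mostly at the bright end. With each array only centred on its median, the 182 non-member probes of the brightest decile had a median log2 ratio of 0.23, against 0.060 in the ninth decile. From the second to the seventh decile the medians ran from -0.054 to -0.025, and the dimmest decile stood at 0.055. After loess the brightest decile stood at -0.0040. Centring alone called 34 accessions in limma (1.83%), of which 2 were members. These were RPL5 at 0.73 (adjusted p = 0.0121) and RPS12 at 0.43 (adjusted p = 0.0292), and both lay in the brightest decile of probes. RPS19, which lies at the 73.8th percentile of brightness, had 0.25 under centring and was not called.

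**Figure D3:**
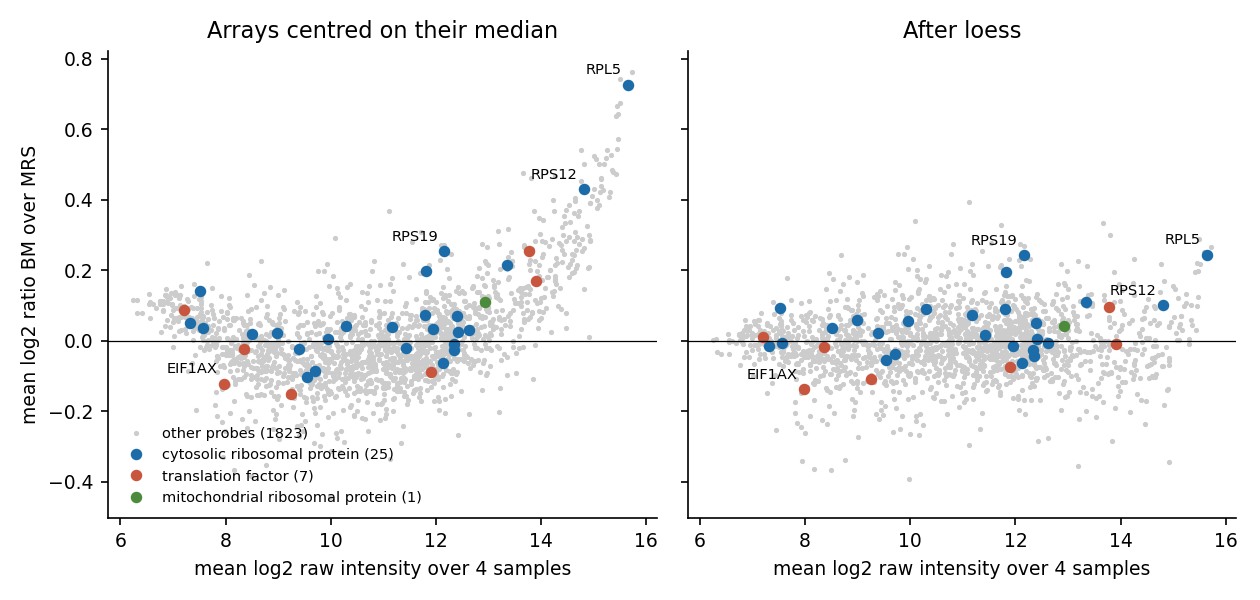
Mean log2 ratio of BM over MRS against the mean log2 raw intensity of each accession, with each array centred on its median (left) and after loess (right); grey points are the 1823 other probes and coloured points the members. With centring alone RPL5 stands at 0.73 and RPS12 at 0.43, at the bright end where the ratios of other probes also rise. RPS19 lies above most probes of like brightness in both panels, and after loess so does RPL5.

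RPL15, a large subunit protein, was printed 20 times on each array, where the other members were printed as 2 spots. Whether all 20 spots carry the same oligonucleotide is not stated in the sources used here. On array 1 all 20 spots had negative log2 ratios, from -0.30 to -0.025, with a mean of -0.13 ± 0.081 (SD, 20 spots). On array 2 there were 16 positive and 4 negative, from -0.045 to 0.27, with a mean of 0.10 ± 0.11. The mean over both arrays was -0.013 ± 0.17 (SD, n = 2), and the means of the 2 arrays, each from a separate pair of cultures, had opposite signs.

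The spots of RPL15 also fell into a bright and a dim class of 10 each, a split made here after the values were seen. In the MRS sample of array 1 the bright spots had 7431 to 13405 and the dim spots 138 to 491, a 97.1-fold range for 1 accession. The bright spots had a mean log2 ratio of -0.19 ± 0.060 on array 1 and 0.19 ± 0.051 on array 2 (SD over 10 spots), with every spot negative on the first and positive on the second. The dim spots had -0.069 ± 0.040 and 0.013 ± 0.051. TUBA1B, a tubulin gene also printed 20 times, spanned 51.0-fold in that sample and had means of 0.0026 ± 0.057 and 0.021 ± 0.060 (SD over 20 spots). Spots are not replicates of the treatment, and both arrays hold 1 culture per group.

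**Figure D4:**
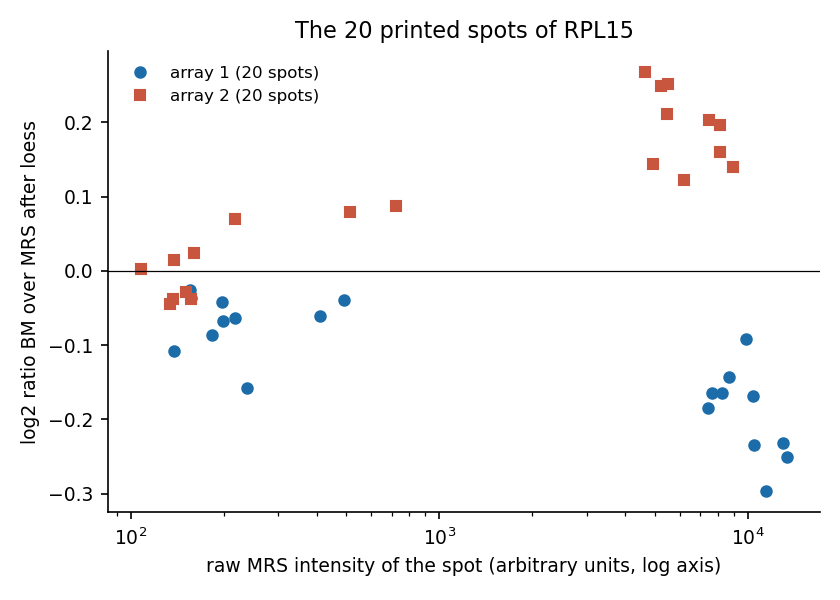
Log2 ratio of BM over MRS after loess against the raw MRS intensity (arbitrary units, log axis) for each of the 20 printed spots of RPL15, on array 1 (circles) and array 2 (squares). The 10 bright spots lie from -0.30 to -0.092 on array 1 and from 0.12 to 0.27 on array 2, while the dim spots lie from -0.16 to -0.025 and from -0.045 to 0.087, so that on array 1 the classes overlap.

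The other 32 members had 2 spots each, and these agreed better than the arrays did. Between duplicate spots the log2 ratios had a median gap of 0.022 on array 1 and of 0.041 on array 2, and between arrays the median gap was 0.078. Over members the ratios of array 1 and array 2 had a Pearson correlation of 0.133 (33 genes) and over the ribosomal proteins of 0.139 (25 genes), close to 0.108 over all 1856 accessions. These genes share their 2 arrays and are not independent. A gap of over 0.2 between arrays was found for 9 of the 33 members, against 19.0% of all accessions, and among these were RPS16, EIF4G1, RPS19, RPL39L, RPL15, EIF1AX, RPL26 and EIF4B.

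In the authors' deposited table, which gives a z ratio per spot from the mean net intensity of each group, RPS19 was the highest member. Its 2 spots had z ratios of 3.08 and 3.26 in the authors' deposited table, with folds of 1.25 and 1.27, and ranked 14th and 7th of 3786 non-control spots. There, 94 spots (2.48%) had a z ratio of at least 2 and 89 (2.35%) one of -2 or less, thresholds chosen here. Among the members' spots beyond them were both spots of RPS19 and 1 spot of RPL35A (2.10) on the positive side, and 1 spot of EIF1AX (-2.23) on the other, in the authors' deposited table. Both spots of RPL5 were under 1 there, at 0.765 and 0.932.

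A mean of linear intensities gives more weight to the array on which a gene is brighter. Array 2 supplied 72.9% of the MRS signal of RPS19, taken as raw intensity less local background. The z ratio rests on the authors' net intensities instead, for which this share was not computed. That is also the array on which RPS19 had its larger ratio, 0.39 against 0.099 on array 1. Whether this weighting bears on its z ratio was not tested.

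**Figure D5:**
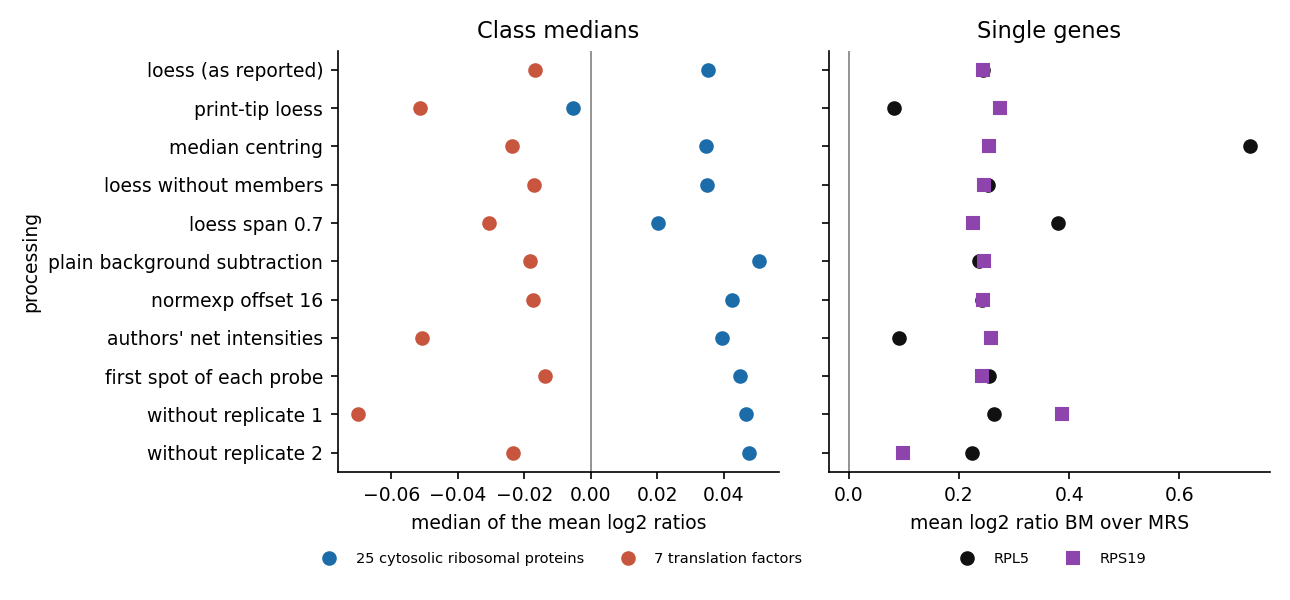
Median of the mean log2 ratios of the 25 cytosolic ribosomal proteins and 7 translation factors (left) and mean log2 ratio of RPL5 and RPS19 (right) under each processing; without replicate 1 or 2 a value is that of the other array. Ribosomal proteins lie above factors in every row shown and cross 0 under print-tip loess (-0.0053), RPL5 runs from 0.082 to 0.73, and RPS19 moves most when an array is left out.

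Genes that act around translation were followed through short lists. Over all accessions 24.6% had positive and 28.4% negative ratios on both arrays. Lists of so few genes give no rate to set against these shares. Of 4 measured ribosome biogenesis genes, 3 had positive ratios on both arrays and 1 negative. NPM1, a nucleolar chaperone, stood at 0.046 ± 0.0015, DKC1, a pseudouridine synthase, at 0.061 ± 0.056, PES1, which processes ribosomal RNA, at 0.039 ± 0.032 and NOP2, a nucleolar methyltransferase, at -0.11 ± 0.0059 (SD, n = 2 each). Of 3 measured tRNA synthetase genes, 2 were positive on both arrays and 0 negative, with MARS1 at 0.040 ± 0.0013 and FARSA at 0.025 ± 0.015. All had adjusted p-values above that of RPL5.

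Of 6 measured regulators of translation, 3 had positive ratios on both arrays and 1 negative. EIF2AK2 (PKR), the kinase that stops initiation in response to double-stranded RNA, had raw intensities of 3331, 5967, 3629 and 6059. Its log2 ratios were 0.35 and 0.18, with a mean of 0.27 ± 0.12 (SD, n = 2; limma adjusted p = 0.571). MTOR stood at -0.16 ± 0.017 (adjusted p = 0.692), and TSC2 and AKT1 at 0.084 ± 0.049 and 0.081 ± 0.058. Of the 2 measured targets of the integrated stress response, ATF4 was negative on both arrays (-0.056 and -0.096) and DDIT3 had opposite signs (-0.0067 and 0.051).

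Beyond these lists of translation genes, MDM2, the ubiquitin ligase that RPL5 can bind, had log2 ratios of -0.15 and -0.26, with a mean of -0.21 ± 0.075 (SD, n = 2; limma adjusted p = 0.594). CDKN1A, an inhibitor of cyclin-dependent kinases, stood at -0.097 ± 0.093 (SD, n = 2). Neither passed the test. Of 4 measured genes in the list of further mRNAs with a pyrimidine tract or of proteins bound to ribosomes, which shares EEF1G with the members and NPM1 with the list above, 1 was positive on both arrays. FAU, which encodes RPS30 fused to a ubiquitin-like protein and is left out by the naming rule, had -0.067 on array 1 and 0.44 on array 2. PABPC1, the poly(A)-binding protein, had 0.072 and -0.025.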

How the data were processed

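The authors deposited, per the file headers, the mean raw intensity and local background of both channels for 3840 spots on each of 2 arrays, and a net intensity, which the series matrix repeats. Their deposited table holds a z ratio, a score per spot, and a fold change as a logarithm to base 1.2, converted here to a fold. Per the submitters' processing notes R 4.2.2 was used, for a step they do not state, and no source used here names the image software. Here limma's normexp (offset 50) and loess (span 0.3) were applied to the raw intensities with limma 3.58.1 (R 4.3.3), with 54 control spots at weight 0 and then left out. Spots of an accession were averaged. An intercept on the 2 log2 ratios was fitted with lmFit and eBayes (1 residual and 3.50 prior degrees of freedom), adjusted over 1856 accessions. Each ratio keeps the array, and so the replicate number in the titles, as a block. The pairing comes from the array layout. The steps were also run on simulated data with known changes, and the outcome is not given here. P-values rest on the spread of the 2 within-array ratios, moderated by the spread over all accessions. They cover only these samples. All counts and medians cover the 33 members, of which 2 are not reported here by name, nor is 1 gene of another list. Members were matched to RefSeq (GRCh38.p14) by accession (30) or symbol (3), and all shown start windows are RefSeq's. Members and lists were chosen with earlier results of these data known. Members given in full were RPL5, RPS19, RPL13 and RPS3, then up to 12 per direction whose arrays shared a sign, ranked by the lesser of their absolute ratios. The other lists gave up to 4 genes each in that order. Alternatives covered normalization, background, the authors' values, a filter, the block, each array and the spots of a probe.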

Additional observations from a re-analysis of the deposited data

How the results depend on the processing

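Limits: 2 arrays without a dye swap bound every value, dim probes carry little signal over background, and RPL5 is at the scanner's limit in 1 BM sample. The count of accessions past the threshold was 0 in each processing that gave a test except median centring, with 34 (33 higher in BM); the cause was not tested. The fit with no replicate block, which takes the 4 channels as 4 samples, called 0 accessions and left each member's ratio as it was, and so did the filter on background. The ribosomal protein median of 0.035 was -0.0053 with print-tip loess, 0.020 with a loess span of 0.7, 0.051 with plain subtraction, 0.043 with a normexp offset of 16, 0.039 with the authors' net intensities, 0.045 with the first spot only and 0.029 without RPL5 (an alternative chosen after seeing the data), and 0.047 to 0.048 with 1 array left out. The factor median of -0.017 was -0.052 with print-tip loess, -0.051 with the authors' values, and -0.070 to -0.023 with 1 array left out. Their difference of 0.052 was 0.090 with the authors' values and 0.071 to 0.12 with 1 array left out. Against 50 probes of like brightness the ribosomal protein median of 0.045 was 0.052 with 100 probes, 8.03e-05 with print-tip loess, 0.041 with median centring, 0.041 with the wider span, 0.049 with plain subtraction, 0.047 with the lower offset, 0.028 with the authors' values, and 0.052 to 0.054 with 1 array left out.

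In 22 of 33 members the sign of the mean held in the 10 alternatives that keep both arrays. The fit with no replicate block and the filter on background are among these 10 and could not change a sign. The other members were near 0. With print-tip loess RPS16 stood at -0.032, RPL21 at -0.0053, RPS29 at -0.013 and RPS15 at -0.033. With median centring RPL21 stood at -0.023, RPS29 at -0.019, RPL22 at 0.036, RPL26 at 0.032, RPL15 at 0.035, RPL35A at 0.051 and EIF4G1 at 0.17. With a span of 0.7 RPS15 stood at -0.0093, RPL22 at 0.0024 and RPL35A at 0.0055. With the authors' values RPS16 stood at -0.025, RPS29 at -0.014, RPS15 at -0.022, RPL22 at 0.0073, RPL35A at 0.12 and EEF1G at 2.38e-05. With the first spot only RPS15 stood at -0.012, RPL22 at 0.018, RPL15 at 0.042, RPL35A at 0.011 and EIF4G2 at -0.0046, and with plain subtraction EIF4G2 at -0.0032. RPL15 was 0.00085 over its 10 brighter spots, an alternative added after seeing the data. With 1 array left out the 15 members of opposite sign turn by construction: RPL39L ran from -0.064 to 0.18, RPS16 from -0.15 to 0.22, RPL21 from -0.0034 to 0.048, RPS29 from -0.016 to 0.047, RPS15 from -0.016 to 0.027, RPL22 from -0.045 to 0.034, RPL26 from -0.12 to 0.11, RPL15 from -0.13 to 0.10, RPL35A from -0.056 to 0.028, RPS9 from -0.11 to 0.057, MRPL28 from -0.0073 to 0.094, EIF4B from -0.0083 to 0.20, EIF4G2 from -0.020 to 0.042, EIF4G1 from -0.16 to 0.14 and EEF1G from -0.070 to 0.036.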

Other observations

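Further translation genes that the naming rule leaves out had small ratios. A probe named ANKHD1 in the files and EIF4EBP3 (a repressor of cap-dependent initiation) in RefSeq, had raw intensities of 561 and 514 in MRS and 473 and 446 in BM and a log2 ratio of -0.093 ± 0.059 (SD, n = 2; limma adjusted p = 0.779). MTRF1, a mitochondrial release factor, had -0.079 on array 1 and 0.029 on array 2. VARS1, a tRNA synthetase, had -0.030 and 0.048.

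The other accessions printed 10 or 20 times had ratios closer to 0 or of one sign. ACTB (10 spots) had means of 0.078 and -0.010 on arrays 1 and 2, GAPDH (10 spots) 0.026 and 0.014, and an accession without a symbol (20 spots) 0.070 and 0.095. RPL15 had the widest gap between arrays of these 5 accessions.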
